A study of Homo sapiens with 15 samples.

Results

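The genes described here are the co-receptors that bring lipopolysaccharide (LPS) to Toll-like receptor 4 and the adaptors and inhibitors that act directly on Toll-like receptors. They are LY96 (also called MD-2), CD14 and LBP on the ligand side, MYD88, TIRAP, TICAM1 (TRIF), TICAM2 (TRAM) and SARM1 as adaptors, and TOLLIP and SIGIRR as inhibitors. Members were chosen by gene symbol, through the accession that the array design gives each probe. No measured value entered this rule, but earlier results of these data were known when the genes were chosen. Of these 10 genes, 9 had at least 1 probe, with 14 probes in all among 50599 on the array, and 20503 genes were named in the whole series. Of the 14 probes, 10 probes of 8 genes were bright enough to test, among 22685 probes tested. No probe was assigned to TICAM2 alone.

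LPS of Gram-negative bacteria is extracted by LBP, a serum protein secreted mainly by liver, and handed through CD14 to the complex of TLR4 and LY96. LY96 holds the lipid part of LPS, and TLR4 without LY96 does not sense LPS. The receptor then signals through TIRAP and MYD88 at the cell surface, which leads to NF-kB, and through TICAM2 and TICAM1 from endosomes, which leads to interferon genes as well. SARM1, TOLLIP and SIGIRR are known as brakes on this signalling.

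SCC13 is a cell line from a squamous cell carcinoma of the skin, the malignant counterpart of epidermal keratinocytes. All cells carried a stably transfected plasmid and had been selected with blasticidin, either the empty plasmid pUNO (SCC13-pUNO) or pUNO-TLR4GFP, which drives TLR4 joined to a green fluorescent protein (SCC13-TLR4). The SCC13-TLR4 population had been sorted for high fluorescence, so each line is 1 transfected population and the replicates are cultures of it. The p-values below therefore rest on the spread between arrays of these cultures, not between transfections. Except where slide is taken as a factor, that spread also holds the difference between the 2 slides on which the arrays lay. Both lines were routinely grown in medium with fetal calf serum, which is itself a source of LBP and soluble CD14 protein that an array of cellular RNA does not read. The array methods do not state whether serum was present during the LPS treatment. RNA was taken from untreated cells (4 arrays of SCC13-pUNO, 3 of SCC13-TLR4) and from cells given 10 μg/ml ultrapure LPS for 24 hours (4 arrays of each line). The comparisons ask whether the line that carries TLR4 differed from the control line without and with LPS, and whether LPS changed either line.

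Each array is a 1-colour Agilent array, and a level is the log2 intensity of a probe minus that of the 75th percentile on its array, so that 0 stands for a spot at that percentile and a difference of 1 is a factor of 2. The share of spots well above background was 47.1% to 56.2%. The 15 arrays lay on 2 slides, 8 on slide 1 and 7 on slide 2, and the groups were not spread evenly: slide 1 held 3 of the 4 arrays of control cells without LPS, 1 of the 3 of SCC13-TLR4 cells without LPS and 2 of each LPS group. The brighter of 2 TLR4 probes (A_24_P69538) checks the labels, while the other was well above background on 0 of 15 arrays and checks nothing. The brighter probe stood between 2.84 and 3.19 on all 7 arrays of SCC13-TLR4 cells and between -6.40 and -3.80 on 7 of the 8 arrays labelled SCC13-pUNO. Of these 7, only untreated replicate 1, at -3.80, was well above background for it. The remaining array, labelled as replicate 2 of the untreated control line, stood at 3.04, which goes against its label. It is named here by its label, pUNO untreated 2, and the differences between 2 groups that it enters are also given without it. Keratinocyte markers were present, with 8 of 10 (among them KRT5 and KRT14) well above background on all 15 arrays and KRT6A and PKP1 on 7 and 6 arrays.

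None of the 8 genes tested passed the test between any pair of groups. None of the 10 probes passed an adjusted p of 0.05 (limma) in SCC13-TLR4 against SCC13-pUNO cells without LPS or with LPS, or in LPS against untreated cells of either line. Over all probes tested the share called was 0% in each of these 4 comparisons. TLR4 itself, the transfected gene, was among those not called. Its brighter probe differed by 6.32 (SE 1.59, limma, adjusted p = 0.999) without LPS and by 8.86 (SE 1.47, adjusted p = 0.312) with LPS. Without the array labelled pUNO untreated 2 it passed in both (limma, adjusted p = 1.4e-05 and 1.4e-06). With all arrays, failing the test therefore does not show that a probe was unchanged. For single genes of this kind the measured interval is therefore given as well. In 38 of the 40 differences (10 probes in 4 comparisons) the 95% interval lay within 1 and -1 on the log2 scale, and in 17 of 40 within 0.5 and -0.5. The other 2 intervals both belonged to LY96 and reached 1.04 and -1.11. The smallest of 40 two-sided exact permutation tests over arrays gave p = 0.0857. With 4 arrays against 4 or 3 the smallest p they can give is 0.0286. With the array labelled pUNO untreated 2 left out, none of the 10 probes passed between the lines either, where 0.0308% of all probes did without LPS, 0.0440% with LPS and 0.101% over both. With slide as a factor in addition these shares were 0.0483%, 0.0967% and 0.215%, again with none of the 10 probes.

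**Figure D1:**
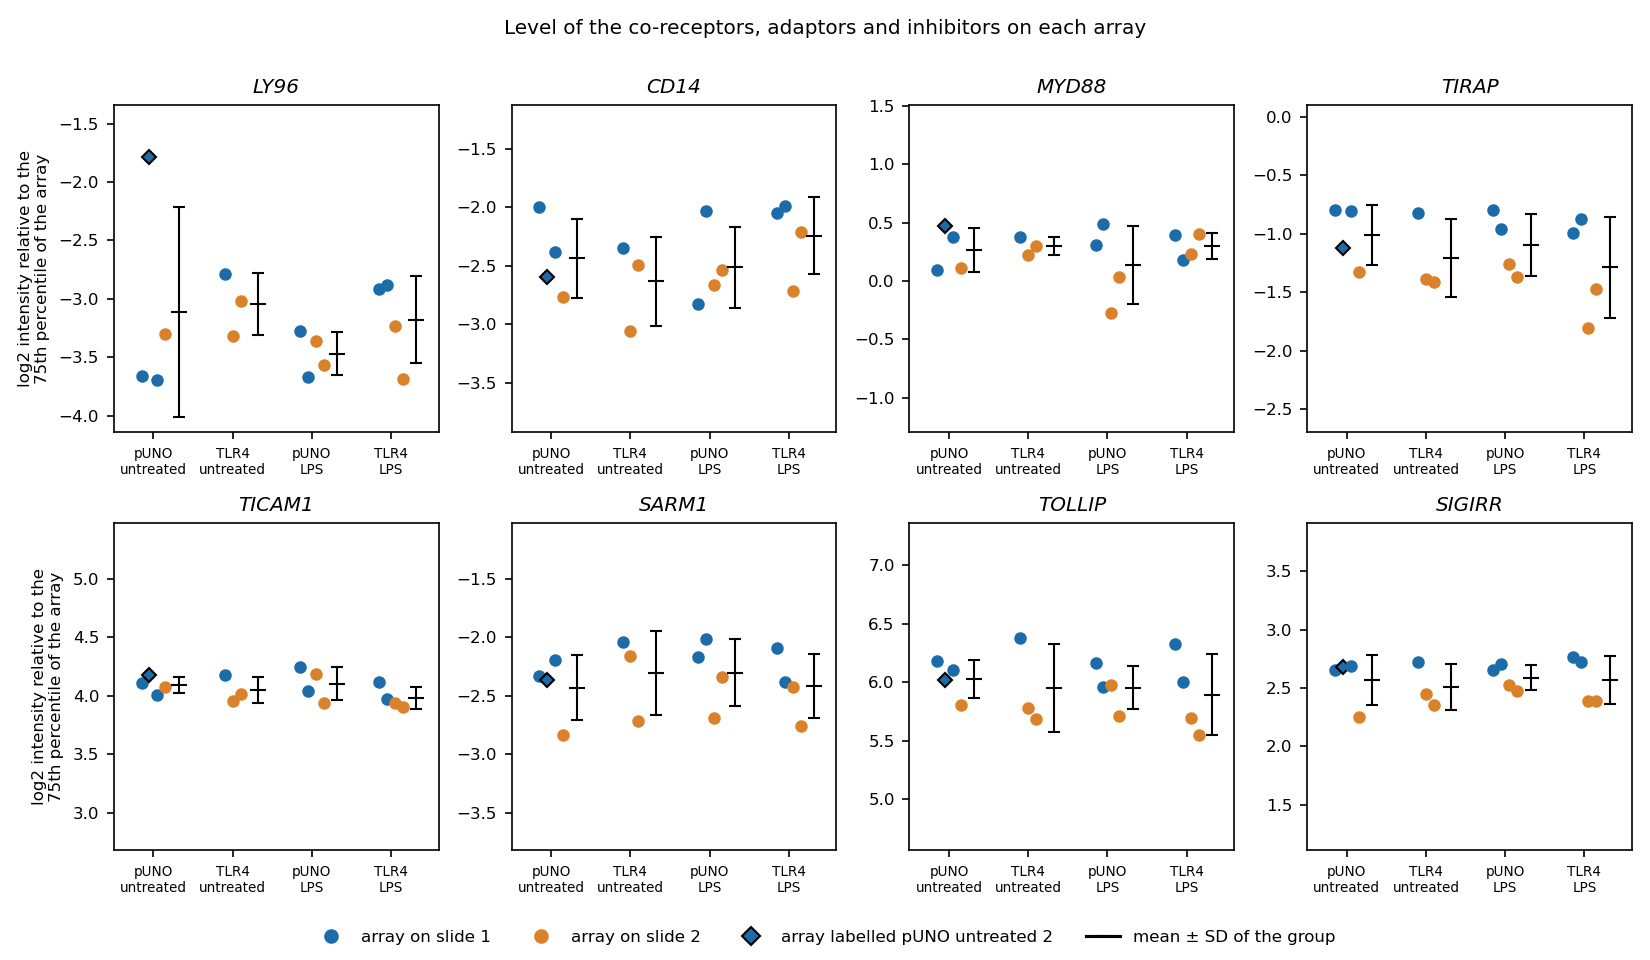
Level of the brightest tested probe of 8 genes on each of 15 arrays, as log2 intensity against the array's 75th percentile (vertical axes, each spanning the same number of log2 units), by group (pUNO, SCC13-pUNO cells; TLR4, SCC13-TLR4 cells). Points are arrays, coloured by slide, the black bar is the mean ± SD, and the diamond is the array labelled pUNO untreated 2, which stands alone at -1.79 for LY96 and among the other arrays for the other genes.

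LY96, the subunit of the receptor complex that binds LPS, was well above background on all 15 arrays. In untreated SCC13-pUNO cells its level was -3.66, -1.79, -3.70 and -3.30 on replicates 1 to 4. In untreated SCC13-TLR4 cells it was -2.79, -3.32 and -3.02. After 24 hours with LPS it was -3.28, -3.67, -3.36 and -3.57 in SCC13-pUNO cells and -2.92, -2.88, -3.23 and -3.69 in SCC13-TLR4 cells. The highest value of all, -1.79, was on the array labelled pUNO untreated 2, the one whose TLR4 level goes against its label. Apart from it, LY96 lay between -3.70 and -2.79, and the groups overlapped.

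The result for LY96 turned on that array. With all arrays the level in untreated SCC13-TLR4 cells was 0.07 (SE 0.38) above that in untreated SCC13-pUNO cells (limma, adjusted p = 0.999; 95% interval -0.74 to 0.88). Without the array the difference was 0.51 (SE 0.22, limma, adjusted p = 1.00), with the SCC13-TLR4 array higher in 8 of 9 pairs of arrays and a two-sided exact permutation p of 0.2, against a smallest possible p of 0.1. With LPS, where the array takes no part, SCC13-TLR4 cells were 0.29 (SE 0.35) above SCC13-pUNO cells (limma, adjusted p = 1.00), higher in 12 of 16 pairs and with an exact permutation p of 0.2. Neither of the 2 comparisons of the lines passed the test, and with all arrays both differences were smaller than their SE. On slide 1 the difference with LPS was 0.57, and on slide 2 it was 0.01.

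Averaged over untreated and LPS-treated cells, LY96 was 0.18 (SE 0.26) higher in SCC13-TLR4 cells with all arrays, and 0.40 (SE 0.14) higher without the array labelled pUNO untreated 2. Neither passed the adjusted threshold (limma, adjusted p = 0.996 and 0.999), nor did the latter with slide as a factor, where the difference was 0.43 (SE 0.14, adjusted p = 0.339). An exact permutation of the line labels within untreated and within LPS-treated arrays gave p = 0.596 with all arrays (2450 splits) and p = 0.0229 without the array (1400 splits). Of the 10 probes put through this pair of tests, LY96 was the only one under 0.05, and it was chosen for display after its values were seen. By limma without the array, 1 of the 10 probes had an unadjusted p under 0.05 for this difference, against 4.44% of all probes. With slide as a factor in addition it was again 1 of the 10, against 11.2% of all probes. For the permutation no share over all probes was computed. On slide 1, without the array, the 3 arrays of SCC13-TLR4 cells (-2.92 to -2.79) lay above the 4 of SCC13-pUNO cells (-3.70 to -3.28). On slide 2 the 4 arrays of SCC13-TLR4 cells (-3.69 to -3.02) overlapped with the 3 of SCC13-pUNO cells (-3.57 to -3.30). In this comparison within slide 1, 2 of the 10 probes had lines that did not overlap (LY96 and SIGIRR, both higher in SCC13-TLR4 cells), where 7.32% of all probes tested did. On slide 2 there were 2 others (MYD88 higher, the brighter TIRAP probe lower), where 16.1% of all probes did, and none of the 10 probes was separated in this way on both slides.

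For LY96, LPS-treated and untreated cells of neither line differed by more than the spread between arrays. In SCC13-pUNO cells LPS-treated minus untreated arrays gave -0.36 (SE 0.35, limma, adjusted p = 1.00), and without the array labelled pUNO untreated 2 the sign turned to 0.08 (SE 0.20). In SCC13-TLR4 cells the difference was -0.14 (SE 0.38, limma, adjusted p = 1.00; 95% interval -0.95 to 0.67).

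CD14, the co-receptor that loads LPS onto LY96 and is best known from monocytes, was well above background on all 15 arrays. Its level was -1.99, -2.60, -2.38 and -2.77 in untreated SCC13-pUNO cells and -2.35, -3.06 and -2.49 in SCC13-TLR4 cells without LPS. With LPS it was -2.82, -2.03, -2.67 and -2.53 in SCC13-pUNO cells and -2.04, -1.99, -2.72 and -2.21 in SCC13-TLR4 cells. All 4 groups overlapped. The lowest array was an untreated SCC13-TLR4 array at -3.06, and each line had arrays as high as -1.99.

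The widest difference for CD14 was that of SCC13-TLR4 cells with LPS from those without, 0.39 (SE 0.25, limma, adjusted p = 1.00; 95% interval -0.15 to 0.93). LPS-treated arrays were higher in 10 of 12 pairs, and the exact permutation p was 0.229. On slide 1 the difference was 0.33 and on slide 2 0.31. In SCC13-pUNO cells the same comparison gave -0.08 (SE 0.23), or -0.13 (SE 0.26) without the array labelled pUNO untreated 2. SCC13-TLR4 minus SCC13-pUNO was -0.20 (SE 0.25) in untreated cells, or -0.25 (SE 0.28) without that array, and 0.27 (SE 0.23) with LPS. With all arrays and slide as a factor it was -0.05 (SE 0.22) in untreated cells and 0.27 (SE 0.19) with LPS. None of these passed the test.

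LBP, the serum protein that lifts LPS from bacterial membranes, was not well above background on any of the 15 arrays, so it has no measured level here and was not tested. Liver markers were mostly below background too, with ALB, TTR and FGB above it on 0 of 15 arrays and APOA1 on 15. Because CD14 is a monocyte gene, a list of other monocyte and macrophage genes was read beside it. Of 10 genes, 8 had a probe, and 6 of these (PTPRC, CSF1R, CD68, TYROBP, FCER1G and SPI1) were well above background on all 15 arrays, ITGAM on 7 and CD163 on 0. The summed level of the list on the linear scale was 2.16 to 2.42 in untreated SCC13-pUNO cells, 2.23 to 3.04 in untreated SCC13-TLR4 cells, 2.18 to 3.24 in SCC13-pUNO cells with LPS and 1.92 to 2.84 in SCC13-TLR4 cells with LPS. The groups overlapped in it, and its part in the CD14 signal was not tested.

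MYD88, the adaptor shared by nearly all Toll-like receptors and the receptors of the interleukin-1 family, was well above background on every array. In untreated cells it stood at 0.09, 0.47, 0.37 and 0.11 in SCC13-pUNO and at 0.37, 0.22 and 0.30 in SCC13-TLR4. With LPS it stood at 0.31, 0.48, -0.28 and 0.03 in SCC13-pUNO and at 0.39, 0.18, 0.23 and 0.40 in SCC13-TLR4. The widest spread was within LPS-treated SCC13-pUNO cells, whose arrays hold both the highest and the lowest value. SCC13-TLR4 minus SCC13-pUNO was 0.03 (SE 0.16) in untreated cells and 0.16 (SE 0.15) with LPS (limma, adjusted p = 0.999 and 1.00). The value with LPS was -0.11 on slide 1 and 0.44 on slide 2. LPS minus untreated was -0.13 (SE 0.15) in SCC13-pUNO cells and 0.00 (SE 0.16) in SCC13-TLR4 cells. The line difference in untreated cells was 0.10 (SE 0.17) without the array labelled pUNO untreated 2, and LPS in SCC13-pUNO cells then gave -0.056 (SE 0.16).

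TIRAP, the adaptor that places MYD88 at the receptor, had 3 probes. The brightest (A_23_P202905) stood at -0.79, -1.12, -0.80 and -1.33 in untreated SCC13-pUNO cells and at -0.83, -1.39 and -1.41 in untreated SCC13-TLR4 cells. After LPS it stood at -0.79, -0.96, -1.25 and -1.37 in SCC13-pUNO cells and at -0.996, -0.87, -1.80 and -1.47 in SCC13-TLR4 cells. In every group the slide 1 arrays were the higher ones. SCC13-TLR4 minus SCC13-pUNO was -0.20 (SE 0.24) in untreated cells and -0.19 (SE 0.22) with LPS, and the former became -0.05 (SE 0.10) when the slide was taken as a factor without the array labelled pUNO untreated 2. LPS minus untreated was -0.08 in both lines (SE 0.22 and 0.24). Without that array alone, the line difference was -0.24 (SE 0.27) and that for LPS in SCC13-pUNO cells -0.12 (SE 0.25).

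A second TIRAP probe (A_23_P397856), designed to another transcript accession, gave the smallest p of the 40 differences. LPS-treated SCC13-pUNO arrays stood at -2.10, -2.16, -2.26 and -2.62 and untreated ones at -2.01, -1.75, -1.82 and -2.22. Untreated replicate 4 lay among the LPS-treated arrays, and the difference was -0.34 (SE 0.16, limma, adjusted p = 1.00; exact permutation p = 0.0857). It was -0.27 (SE 0.17) without the array labelled pUNO untreated 2, and the line difference of this probe in untreated cells went from -0.029 (SE 0.17) to 0.036 (SE 0.19). The same comparison gave -0.08 with the brighter probe, and this probe gave -0.12 (SE 0.17) in SCC13-TLR4 cells. The third probe (A_33_P3252719) was above background on 2 arrays, the array labelled pUNO untreated 2 and LPS-treated SCC13-TLR4 replicate 2, and was not tested.

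TICAM1, the adaptor of the interferon branch, had 2 probes to the same accession. The brighter one (A_23_P90311) varied least among all tested members, with 4.11, 4.18, 4.01 and 4.07 in untreated SCC13-pUNO cells and 4.17, 3.96 and 4.01 in untreated SCC13-TLR4 cells. After LPS it gave 4.25, 4.04, 4.18 and 3.93 in SCC13-pUNO cells and 4.12, 3.97, 3.93 and 3.91 in SCC13-TLR4 cells. The whole range over 15 arrays was 0.34, a factor of 1.27. Its differences were -0.04 (SE 0.11) and -0.12 (SE 0.10) between the lines, untreated and with LPS, and 0.01 (SE 0.10) and -0.06 (SE 0.11) between LPS-treated and untreated cells of SCC13-pUNO and SCC13-TLR4. The dimmer probe (A_23_P376096) ranged from -1.34 to -0.04 and gave 0.25 (SE 0.28) between the lines with LPS, against -0.12 with the brighter one. Without the array labelled pUNO untreated 2, the brighter probe gave -0.014 between the untreated lines and 0.039 for LPS in SCC13-pUNO cells (SE 0.12 and 0.11), and the dimmer one -0.19 and -0.33 (SE 0.33 and 0.31). Between the lines with LPS the value of the dimmer TICAM1 probe was smaller than its SE and has no direction. Neither probe passed the test.

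TICAM2, which links TLR4 to TICAM1, could not be read on its own. The accessions of 2 probes belong to TMED7-TICAM2, a read-through gene that joins TICAM2 to its neighbour TMED7, and the signal of a probe to it cannot be divided between these genes. Both probes were well above background on all 15 arrays. One (A_32_P123088) ranged from -0.66 to -0.05 and the other (A_33_P3327270) from -2.36 to -1.38. SCC13-TLR4 minus SCC13-pUNO was -0.01 (SE 0.17) and 0.11 (SE 0.20) in untreated cells, and 0.11 (SE 0.16) and -0.06 (SE 0.18) with LPS. Each of these was smaller than its SE and is given no direction. LPS minus untreated was -0.17 (SE 0.16) and 0.27 (SE 0.18) in SCC13-pUNO cells and -0.06 (SE 0.17) and 0.11 (SE 0.20) in SCC13-TLR4 cells. Without the array labelled pUNO untreated 2, the untreated lines differed by 0.039 and 0.13 (SE 0.18 and 0.22). LPS minus untreated in SCC13-pUNO cells was then -0.13 and 0.29 (SE 0.17 and 0.20). None of these differences passed the test.

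SARM1, which restrains TICAM1 signalling and is otherwise known as the NAD-cleaving enzyme of dying axons, had 2 probes. The tested one (A_24_P267293) stood at -2.33, -2.36, -2.20 and -2.83 in untreated SCC13-pUNO cells and at -2.04, -2.16 and -2.72 in untreated SCC13-TLR4 cells. After LPS it stood at -2.16, -2.01, -2.69 and -2.34 in SCC13-pUNO cells and at -2.09, -2.38, -2.42 and -2.76 in SCC13-TLR4 cells. No group stood apart, and the differences were 0.13 (SE 0.22) and -0.11 (SE 0.20) between the lines and 0.13 (SE 0.20) and -0.11 (SE 0.22) for LPS. The untreated lines differed by 0.15 (SE 0.24) without the array labelled pUNO untreated 2, and LPS in SCC13-pUNO cells then gave 0.15 (SE 0.23). The other probe (A_33_P3370763) was above background on 5 arrays, of which 1 was an untreated SCC13-pUNO array and 4 were SCC13-TLR4 arrays (2 untreated, 2 with LPS), and was not tested.

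TOLLIP, an inhibitor that keeps IRAK1 inactive and sorts ubiquitinated receptors, had 1 bright probe (A_33_P3385101), and a second one was above background on 0 of 15 arrays. The bright probe gave 6.18, 6.02, 6.10 and 5.80 in untreated SCC13-pUNO cells and 6.38, 5.78 and 5.69 in untreated SCC13-TLR4 cells. After LPS it gave 6.16, 5.96, 5.97 and 5.71 in SCC13-pUNO cells and 6.32, 6.01, 5.70 and 5.55 in SCC13-TLR4 cells. The SCC13-TLR4 arrays held both the highest and the lowest values. All 4 differences lay between -0.08 and -0.05 (SE 0.19 to 0.20), and the 2 that hold the array labelled pUNO untreated 2 were both -0.08 without it. With all arrays and slide as a factor they did not share a sign. The lines then differed by 0.096 (SE 0.12) untreated and -0.059 (SE 0.11) with LPS. LPS minus untreated was 0.031 (SE 0.11) in SCC13-pUNO cells and -0.12 (SE 0.12) in SCC13-TLR4 cells.

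SIGIRR, a receptor-like inhibitor of the interleukin-1 and Toll-like receptor family that binds MYD88-dependent complexes, stood at 2.66, 2.68, 2.69 and 2.25 in untreated SCC13-pUNO cells and at 2.73, 2.44 and 2.36 in untreated SCC13-TLR4 cells. After LPS it stood at 2.65, 2.70, 2.52 and 2.47 in SCC13-pUNO cells and at 2.77, 2.72, 2.39 and 2.39 in SCC13-TLR4 cells. The arrays fell into a high and a low set within each group, and these sets were the slides. The 4 differences between groups lay between -0.06 and 0.06 (SE 0.14 to 0.15). Without the array labelled pUNO untreated 2, the untreated lines differed by -0.024 (SE 0.16), and LPS in SCC13-pUNO cells gave 0.056 (SE 0.15). With all arrays and slide as a factor, the 4 differences lay between -0.02 and 0.10 (SE 0.06 to 0.07). The one between the untreated lines was then 0.07 (SE 0.07).

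**Figure D2:**
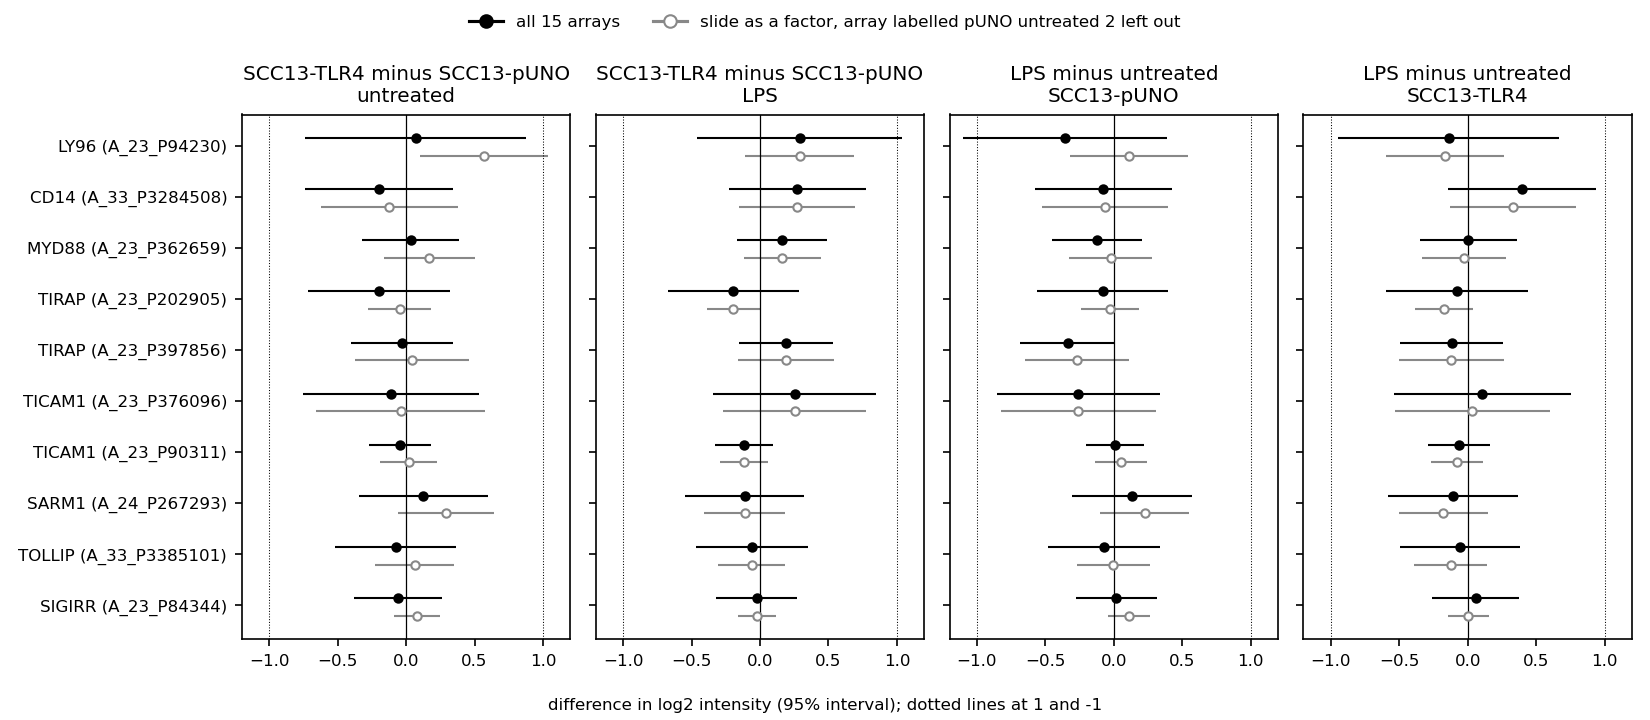
Differences between groups (horizontal axis, log2 units, with 95% interval) for the 10 tested probes in the 4 comparisons, with all 15 arrays (black) and with the slide as a factor but not the array labelled pUNO untreated 2 (grey). All intervals with all arrays include 0. LY96 in untreated cells moves from 0.07 to 0.57 between the black and the grey value, and its grey interval of 0.10 to 1.03 leaves out 0 without an adjusted p under 0.05.

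Read together, the probes lay around the middle of the array as a whole. The median difference of the 10 probes was -0.05 between the lines in untreated cells, 0.07 with LPS, -0.08 for LPS in SCC13-pUNO cells and -0.06 for LPS in SCC13-TLR4 cells. The medians over all probes tested were -0.02, -0.01, -0.01 and -0.01. In none of the 4 comparisons did the 2 groups of arrays separate fully at any of the 10 probes, while over all probes tested 3.73% (lines, untreated), 1.29% (lines, LPS), 1.27% (LPS in SCC13-pUNO) and 1.79% (LPS in SCC13-TLR4) did. When the 4 group means of each probe were put in order, 0 of 30 neighbouring pairs of groups were separate. Neighbours in such an order are the groups closest in mean, and no share over all probes was computed. This count therefore says nothing particular about these genes. The difference between the lines in their response to LPS was tested as well, and none of the 10 probes passed (share called over all probes 0%). The same was true of LPS against untreated cells averaged over both lines (0% of all probes called). The lines were also compared over untreated and LPS-treated arrays together. Of all probes 0.0220% were called there, 5 in number, with TLR4 among them and none of the 10.

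Several of these genes differed between the slides, as did a large share of all probes tested, so this is not particular to them. With a mean for each group, 4 of the 10 probes differed between slides at an adjusted p under 0.05 (limma), all 4 higher on slide 1. Over all probes tested 51.8% differed, and 34.7% were higher on slide 1. The 4 were the brighter TIRAP probe with 0.54 (SE 0.08, adjusted p = 0.00019), SIGIRR with 0.31 (SE 0.05, adjusted p = 0.00023), TOLLIP with 0.41 (SE 0.08, adjusted p = 0.0016) and SARM1 with 0.42 (SE 0.10, adjusted p = 0.0039). For SIGIRR the slide 1 arrays (2.65 to 2.77) and slide 2 arrays (2.25 to 2.52) did not overlap, and neither did those for TIRAP (-1.12 to -0.79 and -1.80 to -1.25). These were 2 of the 10 probes, and 21.6% of all probes tested did not overlap between slides. Each of these 4 slide differences was larger than any difference between groups of the same probe. LY96 differed between slides by 0.29 (SE 0.26, adjusted p = 0.369), MYD88 by 0.21 (SE 0.10, adjusted p = 0.092) and CD14 by 0.36 (SE 0.15, adjusted p = 0.0575, limma). Without the array labelled pUNO untreated 2, CD14 differed by 0.39 and passed (limma, adjusted p = 0.0486), so that 5 of the 10 probes differed between slides, where 50.7% of all probes did. Since every group had arrays on both slides, slide could be taken as a factor, and in that fit no probe of these genes passed the test in any comparison.

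**Figure D3:**
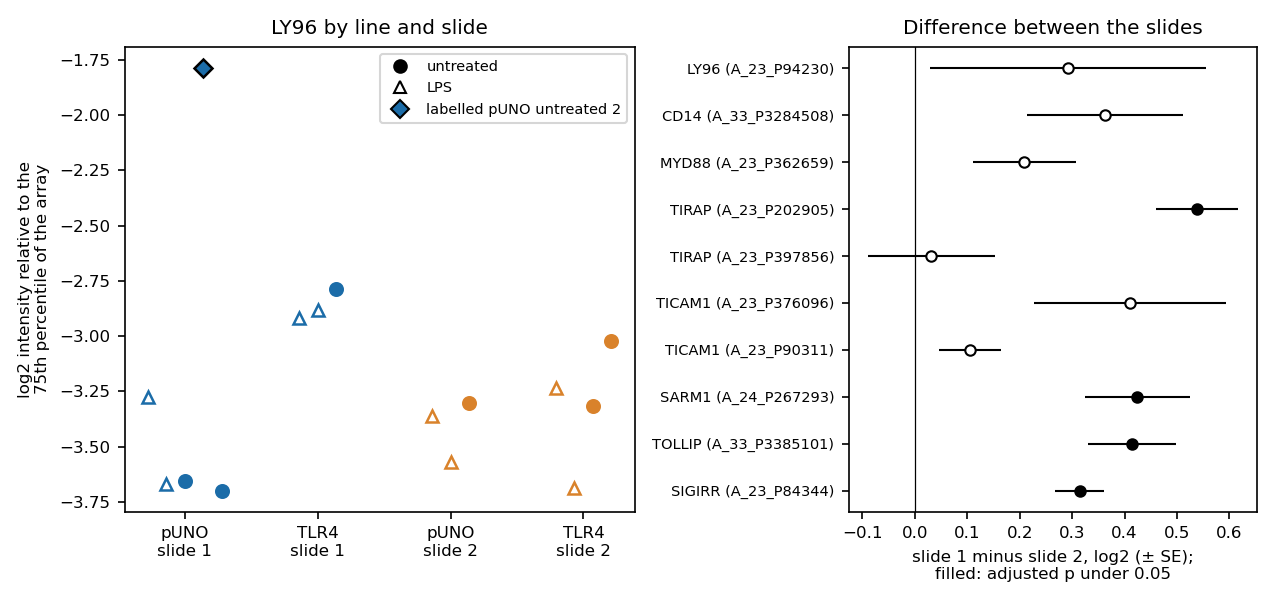
Left, LY96 on each of 15 arrays (log2 intensity relative to the 75th percentile) by line and slide: the 3 SCC13-TLR4 arrays of slide 1 lie between -2.92 and -2.79, above the 4 SCC13-pUNO arrays there other than the diamond, and the lines overlap on slide 2. Right, difference between slides for the 10 tested probes (log2, ± SE) with a mean per group, filled where the adjusted p was under 0.05, which are 1 TIRAP probe, SARM1, TOLLIP and SIGIRR.

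The neighbours of these genes in the pathway were read from lists. Of 18 receptor partners and chaperones 9 were tested, of 20 kinases and ligases after the adaptors 13, of 17 transcription factors and inhibitors at the end of the pathway 15, and of 16 cytokine genes that LPS is known to induce 4. None passed an adjusted p of 0.05 in either direction in any of the 4 comparisons, as with all probes on the array. Between the lines with LPS the median difference of the lists was 0.01, -0.05, 0.03 and -0.10, against -0.01 over all probes. Between the untreated lines it was -0.07, -0.04, -0.08 and 0.27, against -0.02 over all probes. The medians of the cytokine list rest on 4 genes.

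From each list the gene with the smallest p between the lines is described, and IL1B and IL6 as the cytokine genes after CXCL1. CXCL1, a chemokine that draws neutrophils, stood at -1.11 ± 0.38 in LPS-treated SCC13-pUNO cells and -0.04 ± 0.14 in LPS-treated SCC13-TLR4 cells (SD, n = 4 each), a difference of 1.06 (SE 0.24, limma, adjusted p = 0.545), and the difference in untreated cells was 0.66 (SE 0.26). Without the array labelled pUNO untreated 2, CXCL1 differed by 0.90 (SE 0.21) in untreated cells, and with LPS its limma adjusted p was 0.103. ATF3, a stress-induced transcription factor, differed by 1.30 (SE 0.44) with LPS and by 1.06 (SE 0.48) in untreated cells (limma, adjusted p = 1.00 and 0.999). Without that array ATF3 differed by 1.56 (SE 0.35) in untreated cells (limma, adjusted p = 0.848), and with LPS its adjusted p was 0.622. IL1B, an inflammatory cytokine, differed by 0.44 (SE 0.15) in untreated cells and by -0.07 (SE 0.14) with LPS (limma, adjusted p = 0.999 and 1.00), and the former was 0.49 (SE 0.16) without the array. IL6, also a cytokine, went the other way in untreated cells, by -0.72 (SE 0.42, limma, adjusted p = 0.999). That difference was -0.86 (SE 0.46) without the array, and with LPS IL6 differed by -0.14 (SE 0.39). TLR6, which pairs with TLR2, differed by 0.54 (SE 0.17) with LPS and by 0.07 (SE 0.19) without. PELI1, a ubiquitin ligase that acts on IRAK proteins, differed by -0.47 (SE 0.16) with LPS and by 0.02 (SE 0.17) without. The latter values were 0.085 (SE 0.21) for TLR6 and -0.047 (SE 0.19) for PELI1 when the array labelled pUNO untreated 2 was left out. None of these genes passed the test.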

How the data were processed

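RNA of 15 cultures of transfected SCC13 cells was hybridised to Agilent SurePrint G3 Human 8x60K arrays. Per the file headers, each deposited spot intensity (linear scale) came from Agilent Feature Extraction 10.7.3.1, which had subtracted background and spatial trend. Arrays had not been normalized to each other, and the series matrix held the same intensities at all 62976 spots.

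On each array the log2 of the 75th percentile, control spots aside, was subtracted from the log2 intensity. Outlier-marked spots were left out and spots of a probe averaged. Testing required a probe to be well above background throughout at least 1 group. Probes were named through their accessions with a RefSeq table, whose assembly (GRCh38.p14) is not that of the design, so no coordinates are given. The fit, over all arrays with a mean per group, used limma 3.58.1 (R 4.3.3) and Benjamini-Hochberg adjustment over 22685 probes. Tables, figures and permutation tests used Python 3.11.15 with pandas 2.3.3, numpy 2.4.6 and matplotlib 3.10.9, and R.

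The brightest tested probe of a gene came first. From each list up to 3 genes with the smallest p between the lines could be named. The genes and lists were chosen with earlier results of these data known. Slides were read from the array barcodes. Shared replicate numbers did not pair the samples. Alternatives were normexp with an offset of 50, quantile normalization, other filters, outlier-marked spots kept, slide, a replicate block, array weights, trend and robust moderation, only the groups compared, other probes, and each array left out. The slide difference, the lines within slides, the list genes without the array labelled pUNO untreated 2 and the permutation of the averaged line difference were chosen after seeing the data. The fit was tested on simulated data. The number of arrays limits the precision.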

Additional observations from a re-analysis of the deposited data

Results flagged for a closer look

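In a group of 4 arrays, 1 array was far from the others in 2 of 39 groups checked, where about 1 in 20 (1.95 of 39) is flagged by chance. SIGIRR on untreated SCC13-pUNO replicate 4 stood at 2.25, and the other 3 arrays of the group stood between 2.66 and 2.69. That array is the only one of its group on slide 2, where SIGIRR lay between 2.25 and 2.52 on all 7 arrays. TLR4 (A_24_P69538) on LPS-treated SCC13-pUNO replicate 4 stood at -4.74, and the other 3 stood between -6.26 and -6.09. It was well above background on none of the 4 arrays.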

How the results depend on the processing

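The number of co-receptor and adaptor probes called was 0 in all 7 comparisons under all alternatives. Of 1378 differences of single probes recomputed under alternatives, 1359 moved by less than the spread or kept their side of the threshold, 14 moved further and 5 turned sign from a value larger than its SE. In all 145 had the opposite sign, the other 140 from values no larger than their SE, which were given no direction. The smallest adjusted p among them was 0.0889, for the brighter TIRAP probe between the lines in untreated cells with array weights (-0.43). LY96 for LPS in SCC13-pUNO cells ranged from -0.55 to 0.084 with single arrays left out, the latter without the array labelled pUNO untreated 2, and was 0.11 when the slide was a factor as well. Between the lines with LPS, MYD88 turned to -0.11 and the second TIRAP probe to -0.028 within slide 1, and TICAM1 to 0.25 with its other probe. The cause was not tested.

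Over all probes, counts between the lines rose from 0 to 11 in untreated cells and to 22 with LPS when slide was a factor and the array labelled pUNO untreated 2 was left out. In untreated cells array weights gave 8, and with LPS the fit on only the groups compared gave 5. Averaged over both conditions, 5 probes were called, and the count was 22 with slide as a factor, 49 with that array left out as well, 2 with no filter, and 0 with quantile normalization, outlier-marked spots kept, detection required on all 15 arrays, array weights or trend and robust moderation. With single arrays left out the counts ran from 0 to 7 (lines, untreated), 0 to 10 (lines, LPS), 0 to 23 (lines, averaged), 0 to 1 (LPS in SCC13-pUNO), 0 to 5 (LPS in SCC13-TLR4), 0 to 2 (LPS, averaged) and 0 to 3 (difference in response). The highest counts of the lines were without the array labelled pUNO untreated 2. The averaged count was 3 and 2 without untreated SCC13-TLR4 replicates 1 and 3, and 0 without any one of the other 12 arrays. In the other comparisons, counts above 0 came without one of these 3 arrays, LPS-treated SCC13-pUNO replicate 2 or LPS-treated SCC13-TLR4 replicate 4.

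A replicate block took the averaged count from 5 to 0 and changed no other count of calls. Same-numbered arrays correlated between -0.54 and 0.62 in their deviations from the group means, so the numbers were not taken as pairs. Arrays of the same slide correlated between 0.15 and 0.68, and arrays of different slides between -0.61 and -0.13. LBP and the dim probes of TIRAP, SARM1 and TOLLIP are limited by background.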

Other observations

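The genes whose probes followed these genes most closely over the 15 arrays were found after the mean of each slide was subtracted, and all arrays share the transfected populations and the hybridisation. For MYD88 these were RBM5 (r = 0.961), LINC00665 (r = 0.938) and TMEM179B (r = 0.925). For TOLLIP they were NANS (r = 0.937), NDUFS5 (r = 0.934) and COX14 (r = 0.916), and for TICAM1 they were SKP1 (r = 0.891), HSP90AA1 (r = 0.872) and OAZ1 (r = 0.862). For LY96 they were CABYR (r = 0.884), CLRN1-AS1 (r = 0.875) and SPATA6 (r = 0.864), which became 0.846, 0.702 and 0.690 without the array labelled pUNO untreated 2. For CD14 the closest was DIS3L2 (r = 0.859), for SIGIRR SIDT2 (r = 0.842), for TIRAP ITPRIP (r = 0.838) and for SARM1 KCNC4 (r = 0.779). The subtraction of slide means decides some of these, since without it r was -0.068 for SKP1 and 0.294 for NANS, and 0.724 to 0.977 for the other genes named here. These are the highest of 22685 probes for each gene and are given with no test.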
